A study of Rattus norvegicus with 24 samples.

Results

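Heme oxygenase and iron handling genes were examined in kidney RNA of 24 male stroke-prone spontaneously hypertensive rats (SHR-SP), an inbred strain with genetic hypertension. The 9 genes were Hmox1, Blvrb, Fth1, Ftl1, Tfrc, Slc40a1, Slc11a2, Cp and Alas1, and every probe set whose gene symbol in the array annotation was one of them was taken. A probe set is a group of short probes on the array that report on the same transcript. Of 15923 probe sets, 12 qualified, for 6 of the 9 genes: 3 for Cp, 3 for Slc40a1, 2 each for Slc11a2 and Tfrc, and 1 each for Hmox1 and Alas1. The remaining genes, Blvrb, Fth1 and Ftl1, had no probe set of their own. Ferritin was read by 2 probe sets whose annotation lists several symbols: 1367565_a_at (Fth1 and the pseudogene symbol Fth1-ps5) and 1367559_at (Ftl1, Ftl1l2, Ftl1-ps14 and a further pair of unnamed loci). Both are described as shared probe sets and are left out of the counts.

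The rats were 11 weeks old when they were assigned at random to a diet. The normal diet was powdered chow with plain water, and the high salt and high fat diet, here called the salt-fat diet, was chow with 24.5% fat together with 1% NaCl in the drinking water. Kidneys were taken after 2 or 8 weeks, which gave 4 groups of 6 rats, with 1 array per rat. All 4 groups carry the same hypertensive genetic background and no normotensive strain was included. Salt and fat were given together, so that their effects cannot be told apart, and rats at 8 weeks were also older than rats at 2 weeks. RNA came from pulverised whole kidney, so that fewer cells of a type and less RNA per cell cannot be told apart.

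Heme oxygenase opens the heme ring and releases iron, carbon monoxide and biliverdin, which biliverdin reductase turns into bilirubin. Freed iron is stored in ferritin, a shell of heavy (Fth1) and light (Ftl1) chains, or leaves the cell through ferroportin (Slc40a1), the only known iron exporter of mammalian cells. The copper protein ceruloplasmin (Cp) oxidises the exported iron so that transferrin can carry it, the transferrin receptor (Tfrc) and the divalent metal transporter DMT1 (Slc11a2) bring iron in, and Alas1 catalyses the first step of heme synthesis. In the kidney, filtered iron and heme proteins are taken back mainly by the proximal tubule, and Hmox1 is known there as a gene induced by heme and by oxidative stress.

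Upstream sequence was available for 6 of the 9 genes (7 entries, because Slc11a2 has a pair of start sites). Hmox1, Fth1 and Ftl1 had no entry, so that no motif was searched for in them. Those of Cp and Slc40a1, the genes whose signals changed with diet on more than 1 probe set, are shown with that of Tfrc, the member with a motif match. Each is the 250 bases before the gene's start from RefSeq on the rat assembly GRCr8, read 5' to 3' on the gene's strand. Capitals mark the ACGTG core of the hypoxia response element. Cp lies on the plus strand (chr2:104368420-104368669), Slc40a1 on the minus strand (chr9:55543461-55543710) and Tfrc on the minus strand (chr11:81690319-81690568).
Cp: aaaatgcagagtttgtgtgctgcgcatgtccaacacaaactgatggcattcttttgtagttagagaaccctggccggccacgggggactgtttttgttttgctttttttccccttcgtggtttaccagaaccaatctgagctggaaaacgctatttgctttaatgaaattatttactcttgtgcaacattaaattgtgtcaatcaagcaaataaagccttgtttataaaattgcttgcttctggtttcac
Slc40a1: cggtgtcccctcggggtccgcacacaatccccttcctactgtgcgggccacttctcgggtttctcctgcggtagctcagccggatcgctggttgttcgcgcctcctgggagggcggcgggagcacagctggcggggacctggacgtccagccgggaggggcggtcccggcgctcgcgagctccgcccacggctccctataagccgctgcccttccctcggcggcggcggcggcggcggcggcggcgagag
Tfrc: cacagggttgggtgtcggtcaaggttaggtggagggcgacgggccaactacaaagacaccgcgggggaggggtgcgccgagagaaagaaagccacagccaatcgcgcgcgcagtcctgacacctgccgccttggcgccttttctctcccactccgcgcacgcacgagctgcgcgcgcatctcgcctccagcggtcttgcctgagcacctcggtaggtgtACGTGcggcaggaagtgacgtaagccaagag
Among the 7 entries, ACGTG occurred in that of Tfrc, 31 bases before the start. The same motif was present in 16.6% of all 33469 upstream windows of this length. The antioxidant response element TGACNNNGC (10.1% of windows) and the E-box CACGTG (5.59% of windows, which also contains ACGTG) had no match in the 7 windows on either strand. The pattern of the iron responsive element, a hairpin loop that iron regulatory proteins bind, had no match on the transcribed strand in the 50 bases from the start of any of the 7 entries, against 1.57% of all entries. The rest of each transcript was not searched, so that an element further along it could not be found here. These matches are letters in a window and say nothing of binding.

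Signals were MAS5 values in arbitrary units, with array medians of 68.7 to 78.7. Of the 12 probe sets, 11 passed the filter on low signal, and 10208 did in all. Differences are given on the log2(signal + 7.2) scale with their standard error (SE). The SE, the intervals and the limma p rest on a spread estimated for each probe set over all 4 groups together. A probe set was called when its limma p, adjusted by Benjamini-Hochberg over all 10208, was under 0.05. Arrays of a group correlated at 0.958 to 0.981 (log2 signal). Normal-diet arrays 1 and 2 at 8 weeks stood apart in their dimmest values, with a first percentile of signal of 2.4 and 3, where the other 22 arrays had 0.7 to 1.2. For the 11 probe sets and both ferritin probe sets, the 8-week diet differences are given with and without normal-diet arrays 1 and 2. For all other genes and for the marker sums, they are given only with both of these arrays included. Whether those other 8-week results hold without both arrays is not shown here.

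Hmox1, the inducible heme oxygenase, was higher in salt-fat kidneys than in normal-diet kidneys at 8 weeks. On the salt-fat diet at 8 weeks, its signal (probe set 1370080_at) was 180.9, 80.7, 375.9, 99.1, 472.3 and 90.2 in the 6 rats. On the normal diet at 8 weeks it was 85.5, 89.2, 56.7, 67.7, 53.7 and 57.4. The salt-fat group thus held 3 rats far above every other animal (arrays 1, 3 and 5) and 3 within or just above the upper end of the normal-diet range, so that the groups overlapped although all 6 lay above the normal-diet median. The means were 216.5 ± 167.5 and 68.4 ± 15.5 (SD, n = 6 each). The difference was 1.26 ± 0.29 (limma adjusted p = 0.00677), and the exact two-sided permutation test gave an unadjusted p of 0.00866. It was 1.43 without normal-diet arrays 1 and 2 (limma adjusted p = 0.00983).

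At 2 weeks the Hmox1 signal ran from 46.4 through a median of 53.85 to 84.9 on the salt-fat diet, and from 49.6 through 59.1 to 71.9 on the normal diet. The ranges lay over each other, and the difference of -0.03 ± 0.29 had a 95% interval of -0.63 to 0.57 (limma adjusted p = 0.967). That SE is shared by all 4 groups, although the signal SD was 167.5 in the 8-week salt-fat group and 8.1 to 15.5 in the others. It is therefore wide for the 2-week groups and narrow for the 8-week groups, judged by their own spreads. Hmox1 was a dim signal outside the 8-week salt-fat group, with group means of 57.8 to 68.4. These lay below the array medians of 68.7 to 78.7 and near the low-signal filter's threshold of 44.48 to 54.5. The sizes of the Hmox1 differences are uncertain for that reason. The increase from 2 to 8 weeks on the salt-fat diet was 1.47 ± 0.29 (limma adjusted p = 0.00369), which shares its 8-week arrays with the diet comparison. The test of whether the diet difference itself changed between 2 and 8 weeks gave 1.29 ± 0.41 and did not pass over all probe sets (limma adjusted p = 0.197). On the normal diet the difference between times was 0.19 ± 0.29 (limma adjusted p = 0.898).

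Ceruloplasmin Cp, the ferroxidase, was higher on the salt-fat diet by both of the probe sets that were called, and at 8 weeks none of the arrays of one diet reached those of the other on either. On 1368420_at the 8-week signals were 212.3, 165, 256, 200.1, 318.4 and 153.2 on the salt-fat diet. The normal-diet signals at 8 weeks were 79.3, 96.3, 95.3, 60.8, 81 and 82.5. Every salt-fat rat lay above every normal-diet rat, and arrays 5 and 3 were the highest, as they were for Hmox1. The difference was 1.29 ± 0.14 (limma adjusted p = 1.11e-06), and 1.34 without normal-diet arrays 1 and 2. At 2 weeks this probe set was at 79.5 to 99.7 (median 88.25) on the salt-fat diet and at 56.8 to 99.5 (median 69.7) on the normal diet. Those ranges overlapped, and the difference of 0.28 ± 0.14 was not called (limma adjusted p = 0.239). The diet difference was larger at 8 than at 2 weeks by 1.01 ± 0.20 (limma adjusted p = 0.0170), a call that was lost when the GAPDH 3' to 5' ratio (0.84, limma adjusted p = 0.134), the spike-in level (1.05, limma adjusted p = 0.232) or the fat index (1.11, limma adjusted p = 0.0622) was added as a covariate. These 3 measures are explained with the kidney-wide measures further on. Within the salt-fat diet the increase from 2 to 8 weeks was 1.18 ± 0.14 (limma adjusted p = 1.66e-05), again with no overlap.

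The probe set 1368419_at of Cp was already higher at 2 weeks. Its 2-week signals were 179.2, 134.3, 163.6, 163.9, 172.5 and 122.3 on the salt-fat diet and 95.4, 105.8, 114.4, 110.5, 88.7 and 96.1 on the normal diet. The lowest salt-fat rat was above the highest normal-diet rat. The difference was 0.57 ± 0.14 (limma adjusted p = 0.00895), and with the fat index as a covariate it was 0.56 and not called (limma adjusted p = 0.101). At 8 weeks the signals ran from 136.8 through 201.95 to 294.7 on the salt-fat diet and from 94.6 through 99.45 to 134.3 on the normal diet. The groups again did not overlap, by a narrow gap, and the difference was 0.85 ± 0.14 (limma adjusted p = 0.000165), and 0.79 without normal-diet arrays 1 and 2 (limma adjusted p = 0.00296). The change in the diet difference between times was 0.28 ± 0.20 and not called (limma adjusted p = 0.627), so the 2 probe sets differ on this point. The increase from 2 to 8 weeks on the salt-fat diet was 0.34 and not called (limma adjusted p = 0.180), and without salt-fat array 2 at 8 weeks it was 0.45 and called (limma adjusted p = 0.0478).

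The remaining Cp probe set, 1368418_a_at, has the highest mean signal of the 3 and was not called for diet. Its 8-week signals were 378.5, 170.7, 411.9, 300.5, 551.4 and 277 on the salt-fat diet, against 212 to 333.9 (median 279.3) on the normal diet. Arrays 1, 3 and 5 lay above the normal-diet range, array 2 lay below it, and the others lay inside it. The difference was 0.26 ± 0.18 with a 95% interval of -0.12 to 0.63 (limma adjusted p = 0.428), and 0.31 without normal-diet arrays 1 and 2. At 2 weeks the means were 294 ± 47.0 and 259 ± 51.6 (SD, n = 6 each), a difference of 0.19 (limma adjusted p = 0.587). The 3 probe sets of Cp therefore did not give the same answer, and which transcripts each one reads was not examined here.

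**Figure D1:**
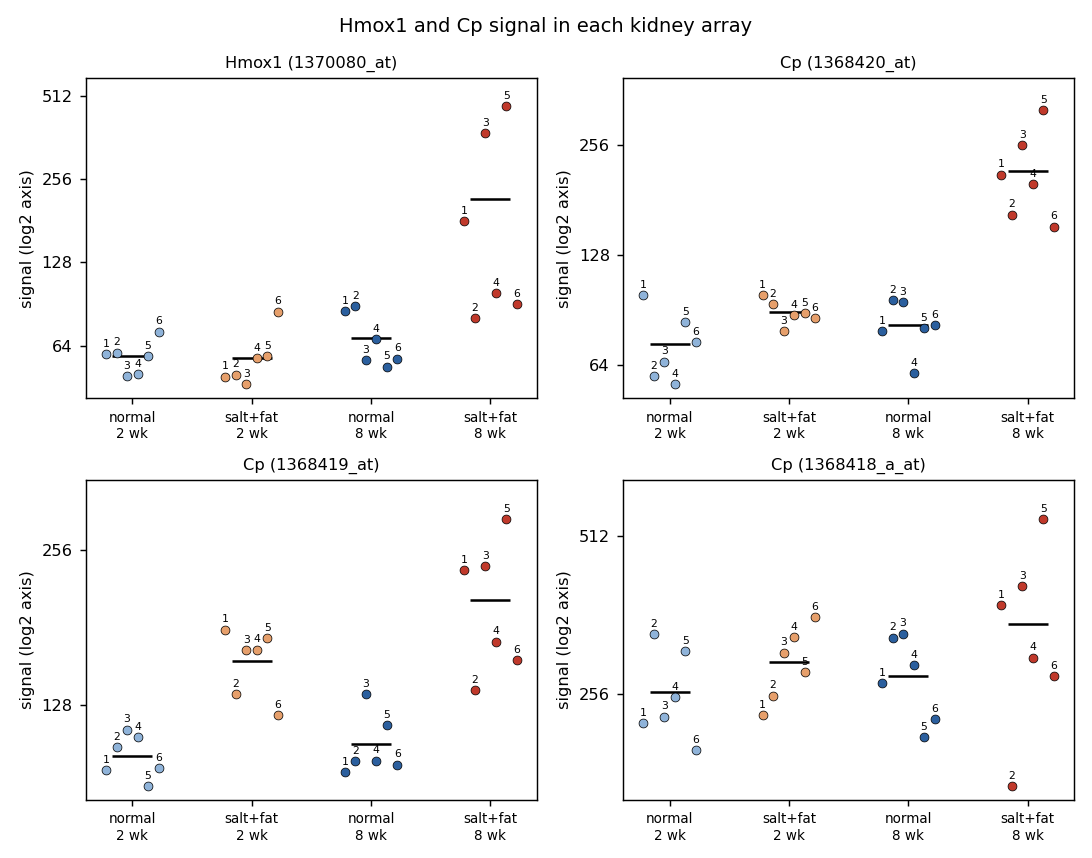
Signal of Hmox1 and of the 3 Cp probe sets in each of 24 kidneys, on a log2 axis; points are arrays with their replicate numbers and the dash is the group mean. In the 8-week salt-fat group, Hmox1 runs from 80.7 to 472.3 and overlaps the normal-diet group, whereas the Cp probe sets 1368420_at and 1368419_at lie wholly above it.

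Hmox1, Cp and a Slc40a1 probe set varied together among the salt-fat rats at 8 weeks. Over these 6 arrays the correlation of Hmox1 with Cp was 0.95 for 1368420_at, 0.95 for 1368419_at and 0.89 for 1368418_a_at. Over the other 18 arrays, with group means removed, the same correlations were 0.11, -0.64 and 0.36. Slc40a1 1390412_at, whose 8-week level did not pass for diet, correlated at 0.90 with Hmox1 and at 0.92, 0.99 and 0.94 with the 3 Cp probe sets in the same 6 arrays. The brighter Slc40a1 probe set, 1387130_at, was less close, at 0.43 with Hmox1 and 0.43, 0.51 and 0.73 with Cp. Slc11a2 1367877_at ran the other way, at -0.70 with Hmox1 and -0.85, -0.75 and -0.65 with Cp. The other Slc11a2 probe set, 1388059_a_at, did not, at 0.29 with Hmox1 and 0.31, 0.45 and 0.66 with Cp. The relation at 8 weeks is therefore a description of 6 animals of 1 group, which share their diet and time. Havcr1, the kidney injury molecule of damaged proximal tubules, was also highest in arrays 1, 3 and 5, with 676.7, 177.4, 487.8, 302.7, 879 and 274.7 in the 6 salt-fat rats. The normal-diet rats at 8 weeks lay between 30.1 and 68 for Havcr1. The summed signal of the erythroid and blood markers was highest in the same 3 arrays too, with 2960, 2638, 3036, 2240, 4028 and 2810, and its part in the Hmox1 signal was not tested. The macrophage marker sum was highest in array 6 instead, with 6870, 6677, 7067, 6065, 6903 and 7159. The macrophage gene Cd68 was at 114.9, 71.2, 103.2, 104.4, 159 and 128.6, highest in array 5 and next in array 6. Array 5 was the highest of the 6 for Hmox1, for all 3 Cp probe sets and for Havcr1.

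**Figure D2:**
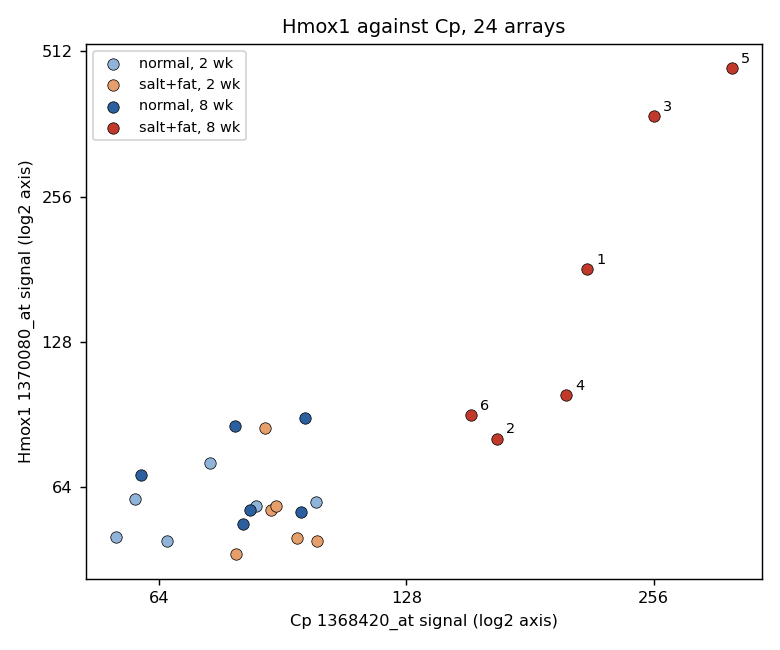
Hmox1 signal against the signal of Cp probe set 1368420_at in 24 kidneys, both on log2 axes, coloured by group, with replicate numbers on the 8-week salt-fat arrays. The 6 labelled arrays form a rising line (correlation 0.95), and the other 18 lie together at the lower left (0.11 with group means removed).

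The genes outside the 9 whose signal followed Hmox1 most closely, by the correlation over 24 arrays with group means removed, were Clu (0.83), Cavin3 (0.78) and Myl12a (0.77). Clu encodes clusterin, a secreted chaperone, Cavin3 a coat protein of caveolae and Myl12a a myosin regulatory light chain. Without the 8-week salt-fat arrays these were 0.29, 0.27 and -0.06 over 18 arrays, so the likeness came from that group. For Cp, represented by 1368418_a_at, the closest were the annexin Anxa7 (0.81), the fibronectin gene Fn1 (0.80) and the collagen gene Col1a2 (0.80), and these were 0.55, 0.62 and 0.59 without that group. This is the Cp probe set that was not called for diet. With group means removed, it correlated at 0.56 with 1368419_at and 0.44 with 1368420_at over 24 arrays. Without the 8-week salt-fat group these were -0.11 and -0.13, so the likeness may not hold for the called Cp probe sets.

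Ferroportin Slc40a1, the iron exporter, was lower on the salt-fat diet at 2 weeks. On 1387130_at the signals were 122.4, 107.6, 112.4, 184.5, 123.3 and 153.3 on the salt-fat diet. On the normal diet they were 172.4, 182.7, 207.2, 209.6, 178.6 and 192.9. All 6 salt-fat rats were below the normal-diet median, 5 of them below every normal-diet rat, and array 4 lay inside the normal-diet range. The difference was -0.51 ± 0.10 (limma adjusted p = 0.00246). On 1390412_at the salt-fat signals were 140, 119.2, 125.5, 154.7, 144.5 and 127.5, against 150, 181, 158.7, 185.2, 170.8 and 167.3 on the normal diet. Array 4 was again the salt-fat rat that overlapped the normal-diet range. The difference was -0.31 ± 0.09 (limma adjusted p = 0.0288). That call was lost without normal-diet array 2 (limma adjusted p = 0.0672) or 4 (limma adjusted p = 0.0662) at 2 weeks, without salt-fat array 2 (limma adjusted p = 0.0769) or 3 (limma adjusted p = 0.0663), and with any of the 3 covariates (-0.31 to -0.28). The call on 1387130_at stood in each of these settings.

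At 8 weeks neither Slc40a1 probe set was called. On 1387130_at the signals ran from 131.9 through 170.35 to 177.1 on the salt-fat diet and from 154.7 through 171.55 to 198.4 on the normal diet, which largely coincide. The difference was -0.08 ± 0.10 (limma adjusted p = 0.678), and -0.11 without normal-diet arrays 1 and 2. On 1390412_at the means were 147 ± 16.5 and 149 ± 18.3 (SD, n = 6 each), with a difference of -0.01, and -0.03 without those arrays. The change of the diet difference from 2 to 8 weeks on 1387130_at was 0.42 ± 0.15 and not called (limma adjusted p = 0.233), so that the times are not shown to differ. The increase from 2 to 8 weeks on the salt-fat diet was 0.30 and not called (limma adjusted p = 0.115). It was called without salt-fat array 4 at 2 weeks (0.39, limma adjusted p = 0.0193) or array 2 at 8 weeks (0.36, limma adjusted p = 0.0443). The probe set 1376972_at lay below the filter on all 24 arrays, with means of 36.6 (normal diet) and 25.6 (salt-fat) at 2 weeks and 28.7 and 30.9 at 8 weeks, and was not tested.

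The genes closest to Slc40a1 1387130_at within groups were the cell adhesion gene Ceacam1 (0.81), the tRNA methyltransferase gene Trmt6 (0.74) and the retinol transporter gene Stra6 (0.73) over 24 arrays. They were 0.78, 0.72 and 0.72 over the 18 arrays without the 8-week salt-fat group, so that, unlike those of Hmox1, they did not rest on it. The genes were picked by correlations that include these 18 arrays, so that this is no separate check of the likeness.

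The ferritin light chain probe set that is shared with copies, 1367559_at, was also lower at 2 weeks. Its signal ran from 2517 through 2958 to 3505 on the salt-fat diet and from 3699 through 3903 to 4025 on the normal diet. The highest salt-fat rat was below the lowest normal-diet rat. The difference was -0.38 ± 0.08 (limma adjusted p = 0.00456). It was -0.17 and not called after quantile normalization (limma adjusted p = 0.151), and it was not called with the spike-in level (-0.26, limma adjusted p = 0.118) or the fat index (-0.37, limma adjusted p = 0.0750) as a covariate. At 8 weeks the means were 3609 ± 260 and 3704 ± 556 (SD, n = 6 each), a difference of -0.03, and -0.11 without normal-diet arrays 1 and 2. The heavy chain probe set shared with a pseudogene, 1367565_a_at, had 2-week means of 4670 ± 699 on the salt-fat diet and 5393 ± 184 on the normal diet (SD, n = 6 each). That difference of -0.22 was not called (limma adjusted p = 0.128), except with array weights (-0.27, limma adjusted p = 0.0283). Its 8-week difference was 0.04, and -0.06 without those arrays. Neither was called. How far the gene copies add to either signal was not tested.

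Slc11a2, which encodes the iron importer DMT1, gave different results on its 2 probe sets. On 1388059_a_at the signals at 8 weeks on the salt-fat diet were 253.1, 191, 234.2, 270.2, 296 and 292.1. At 2 weeks on that diet they were 123.9, 78.7, 130.9, 102, 149.8 and 117.7. Every 8-week rat lay above every 2-week rat, with a difference of 1.09 ± 0.20 (limma adjusted p = 0.00194). On the normal diet the difference between times was 0.31 ± 0.20 and not called (limma adjusted p = 0.697). Without normal-diet arrays 1 and 2 at 8 weeks it was 0.58 and not called (limma adjusted p = 0.449). The normal-diet rats at 8 weeks ranged from 99.6 through 180 to 296.5, a spread that covered the salt-fat values. The diet difference at 8 weeks was 0.48 ± 0.20 and not called (limma adjusted p = 0.141). It was 0.20 without normal-diet arrays 1 and 2 (limma adjusted p = 0.627), and 0.62 and called without normal-diet array 5 (limma adjusted p = 0.0481). At 2 weeks it was -0.31 (limma adjusted p = 0.381), and the change between times was 0.79 and not called (limma adjusted p = 0.258).

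On 1367877_at the normal-diet rats at 8 weeks had signals of 706.8, 690.4, 797.6, 737.8, 744.6 and 829.1, and the salt-fat rats 582.8, 665.8, 589, 589.5, 547 and 781.4. The salt-fat rats lay below the normal-diet range except for array 6. The difference of -0.27 ± 0.09 was not called (limma adjusted p = 0.0671), but was without that array (-0.33, limma adjusted p = 0.0158) or with array weights (-0.32, limma adjusted p = 0.0330). Without normal-diet arrays 1 and 2 it was -0.32 and not called (limma adjusted p = 0.0770). On the normal diet this probe set was at 690.4 to 829.1 at 8 weeks and at 504.8 to 680.1 at 2 weeks, with no overlap. That difference of 0.32 ± 0.09 was not called over all probe sets (limma adjusted p = 0.250), while the exact two-sided permutation test gave an unadjusted p of 0.00216, the smallest possible for 6 against 6. The correlation between both Slc11a2 probe sets with group means removed was 0.04 over 24 arrays. The genes closest to 1367877_at were Taf6 (0.72), Ing1 (0.71) and Mpv17l2 (0.68), of which Taf6 encodes a subunit of the general transcription factor TFIID.

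The transferrin receptor Tfrc was called in none of the 5 comparisons. On 1388750_at the means were 406 ± 57.1 (salt-fat) and 366 ± 44.2 (normal) at 2 weeks (SD, n = 6 each). At 8 weeks they were 395 ± 44.0 and 457 ± 101 (SD, n = 6 each). The differences were 0.15 at 2 weeks (limma adjusted p = 0.480) and -0.19 at 8 weeks, with a 95% interval of -0.42 to 0.04 (limma adjusted p = 0.327). Without normal-diet arrays 1 and 2 the 8-week difference was -0.33 and not called (limma adjusted p = 0.0946). On 1371113_a_at they were -0.33 at 2 weeks (limma adjusted p = 0.382) and -0.18 at 8 weeks (limma adjusted p = 0.664), the latter -0.25 without those arrays. The intervals do not show that the diets were alike for this gene.

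Alas1, the first enzyme of heme synthesis, was also called in none. Its signals at 8 weeks ran from 230.1 through 260.4 to 337.4 on the salt-fat diet and from 235.3 through 354.5 to 385.5 on the normal diet. Normal-diet array 5 was the low value of its group, and the ranges overlapped. The difference was -0.28 ± 0.12 (limma adjusted p = 0.139), and without that array it was -0.38 and called (limma adjusted p = 0.0312). Without normal-diet arrays 1 and 2 it was -0.22 and not called (limma adjusted p = 0.385). At 2 weeks it was 0.08.

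**Figure D3:**
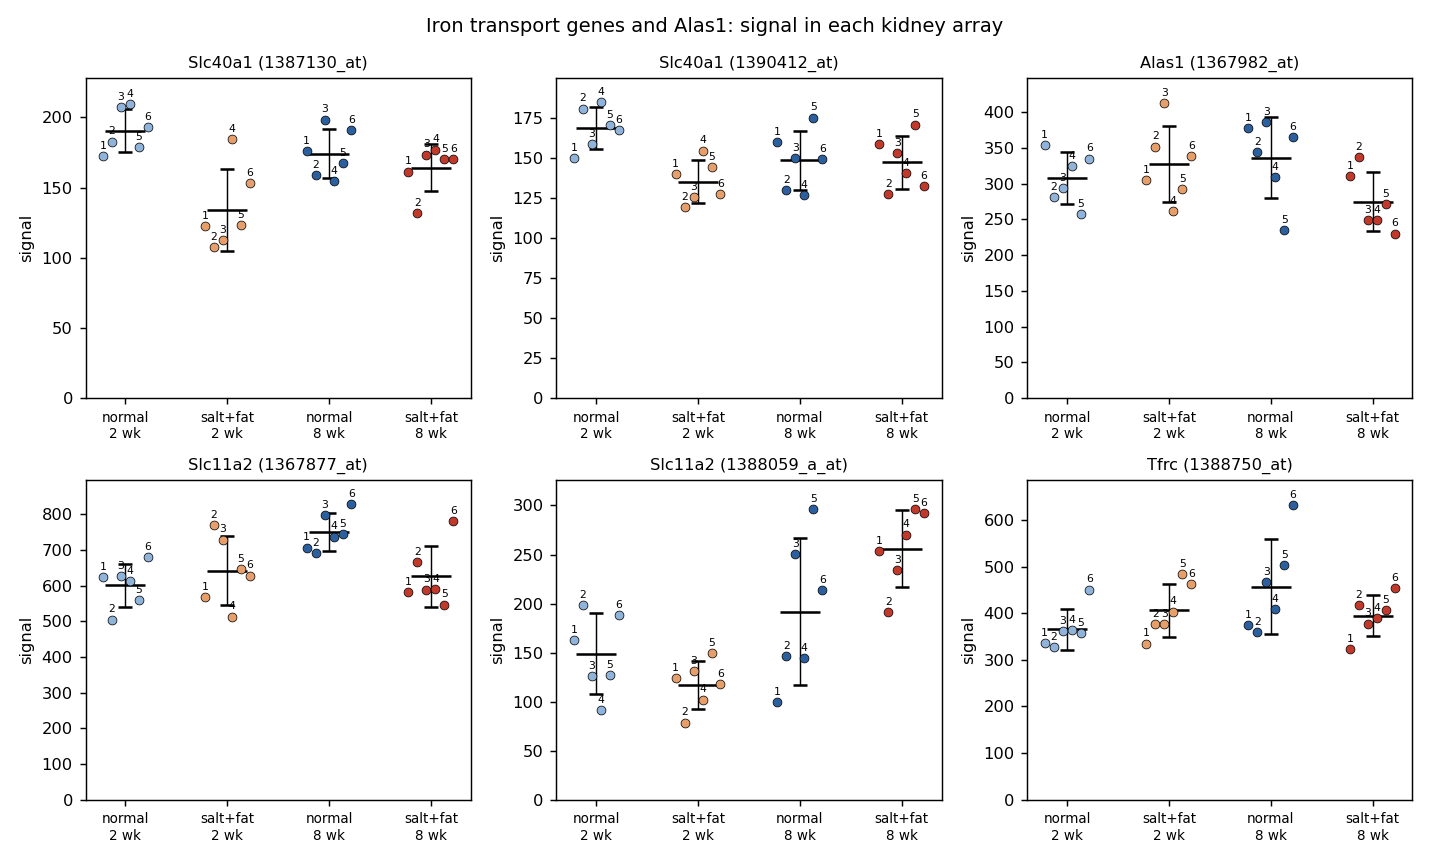
Signal of both tested Slc40a1 probe sets, Alas1, both Slc11a2 probe sets and Tfrc 1388750_at in each of 24 kidneys on linear axes from 0; points are arrays with replicate numbers, and bars are mean ± SD of 6. Slc40a1 is low in the 2-week salt-fat group, and Slc11a2 1388059_a_at is higher at 8 than at 2 weeks on that diet, with no overlap.

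Counted over the 11 tested probe sets, the diet called 3 at 2 weeks: 1 higher (Cp) and 2 lower (Slc40a1). Among all probe sets tested, 8.74% were called at 2 weeks, 4.55% higher and 4.19% lower. At 8 weeks 3 were called, all higher (Hmox1 and 2 of Cp), beside 9.14% of all, of which 5.63% higher and 3.51% lower. The change of the diet difference between times was called for 1 of 11, beside 0.382% of all (0.343% higher and 0.0392% lower). From 2 to 8 weeks, 0 of 11 were called on the normal diet, beside 0.0392% of all (0.0294% higher and 0.00980% lower). By the exact permutation test, unadjusted, 2 differed there at p under 0.05, namely Slc11a2 1367877_at and Tfrc 1388750_at. For that comparison 869 of all 10208 probe sets had an unadjusted limma p under 0.05. On the salt-fat diet 3 of 11 were called from 2 to 8 weeks, all higher (Hmox1, Cp 1368420_at and Slc11a2 1388059_a_at), beside 3.53% of all (2.22% higher and 1.30% lower). The median difference over the 11 was 0.08 for diet at 2 weeks and -0.01 at 8 weeks, against 0.02 and 0.00 over all tested probe sets. The 11 are few and share genes, so these shares describe 6 genes.

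**Figure D4:**
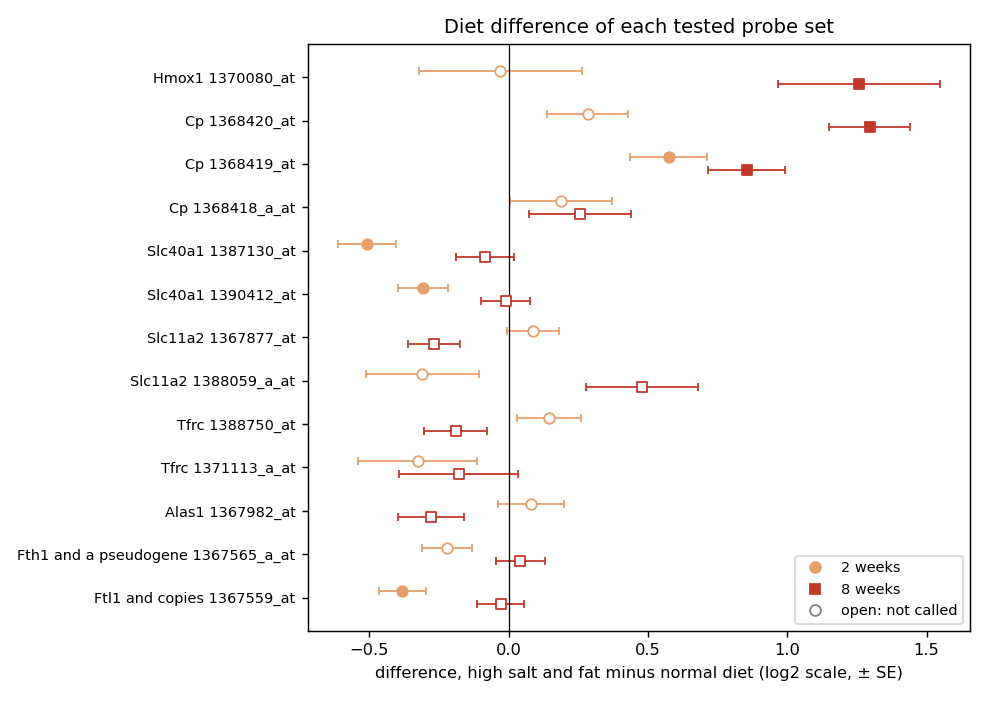
Diet difference of each tested probe set, salt-fat minus normal diet, on the log2(signal + 7.2) scale ± SE, at 2 weeks (circles) and 8 weeks (squares); filled symbols were called. Hmox1 and 2 Cp probe sets lie at 0.85 to 1.29 at 8 weeks, and Slc40a1 lies at -0.51 and -0.31 at 2 weeks.

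The other genes of the pathway were read from lists, each gene by its brightest probe set. Counts at an unadjusted limma p under 0.05 stand beside 2328 of all 10208 probe sets for diet at 2 weeks. At 8 weeks that background was 2416 of 10208. Of the heme synthesis list, 5 of 8 genes were tested. At 2 weeks 2 fell, Ppox (-0.49 ± 0.12, limma adjusted p = 0.0117) and Alad (-0.24 ± 0.08, limma adjusted p = 0.0447), which catalyse a late and an early step. At 8 weeks Alad fell (-0.34 ± 0.08, limma adjusted p = 0.00530). Of 8 tested genes of heme breakdown, binding and transport, Pgrmc1, a heme-binding membrane protein, fell at 2 weeks (-0.23). At 8 weeks limma called 0 of the 8 (2 at an unadjusted p under 0.05, Pgrmc1 and the biliverdin reductase Blvra). The constitutive heme oxygenase Hmox2 was at -0.08 and -0.09 and Blvra at 0.15 and -0.26 at 2 and 8 weeks, none of these called.

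Of 14 tested genes of iron uptake, export and storage, 2 fell at 2 weeks: Lrp2 (-0.26), the megalin gene whose product takes up filtered proteins, and Steap2 (-0.24), a metal reductase. At 8 weeks Lrp2 fell (-0.33, limma adjusted p = 0.00387) and Lcn2 rose. Lcn2, which encodes the siderophore-binding lipocalin NGAL, had means of 233 ± 87.1 and 42.4 ± 16.8 (SD, n = 6 each) at 8 weeks. Its difference of 2.27 ± 0.22 (limma adjusted p = 1.57e-07) was larger than that of any member. The normal-diet mean of Lcn2 lay below the filter's threshold signal (44.48 to 54.5), so that the size of this difference is uncertain. Hepcidin Hamp, the hormone that removes ferroportin from the membrane, was at 0.05 and -0.09, not called. Of 14 tested genes of iron and heme sensing, Egln3, an oxygen-sensing prolyl hydroxylase, rose at 2 weeks (0.61 ± 0.15, limma adjusted p = 0.0109). Its means were 53.5 ± 7.49 and 32.8 ± 7.08 (SD, n = 6 each), and the normal-diet mean lay below the filter's threshold signal of 44.48 to 54.5, so that the size of the difference is uncertain. Aco1, the iron regulatory protein that is also cytosolic aconitase, fell (-0.29). At 8 weeks limma called 0 of the 14 (2 at an unadjusted p under 0.05). Of 7 tested iron-sulfur and mitochondrial iron genes, the cysteine desulfurase Nfs1 fell at 2 weeks (-0.32) and ferredoxin Fdx1 at 8 weeks (-0.26).

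Of 9 tested NRF2 targets outside iron handling, limma called 0 at 2 weeks, and 3 rose at 8 weeks. At 2 weeks 5 of the 9 had an unadjusted p under 0.05, beside 2328 of all 10208 probe sets. The 3 that rose were the glutathione peroxidase Gpx2 (0.84 ± 0.17, limma adjusted p = 0.00209), Pgd of the pentose phosphate pathway (0.26 ± 0.07, limma adjusted p = 0.0147) and the sulfiredoxin Srxn1 (0.44 ± 0.13, limma adjusted p = 0.0356). Nqo1, a widely used NRF2 target, was at 0.21 and -0.01, and the gene of NRF2 itself, Nfe2l2, at -0.02 and 0.08, none of them called. The median over the 9 was -0.15 at 2 weeks and -0.01 at 8 weeks, against 0.02 and 0.00 over all probe sets.

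**Figure D5:**
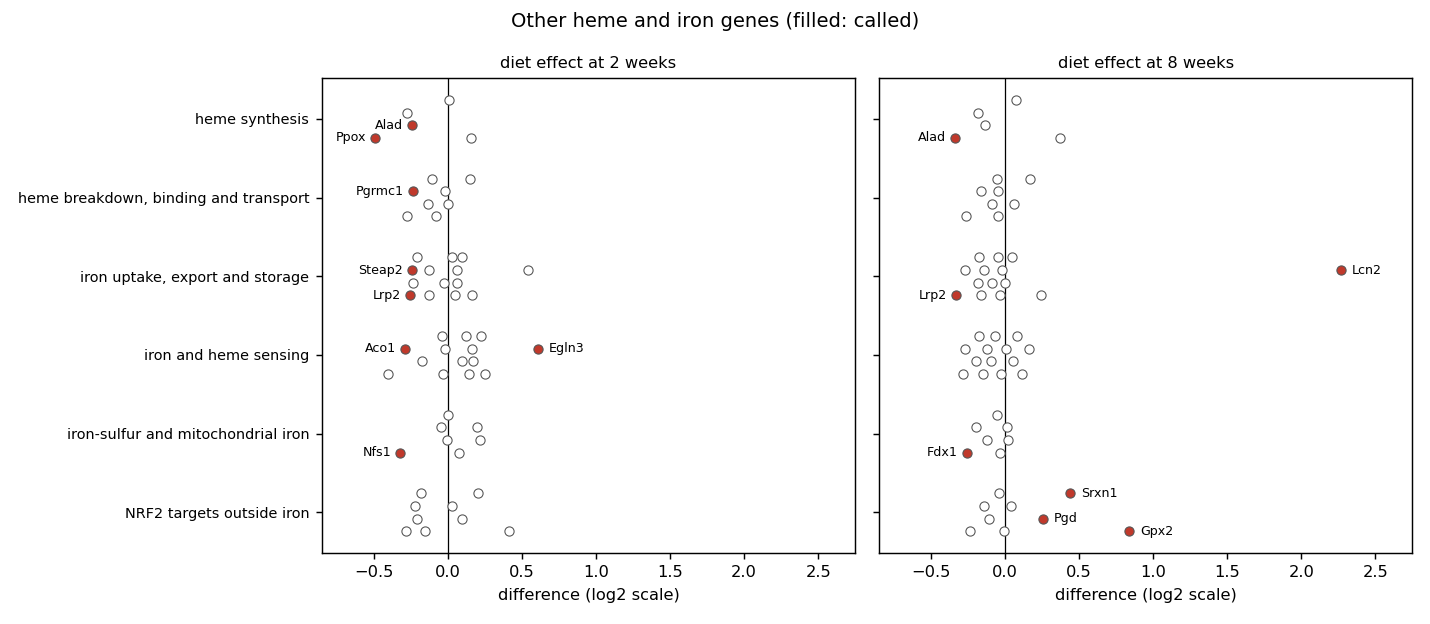
Diet difference of each tested gene of 6 lists of other heme, iron and NRF2 target genes, on the log2(signal + 7.2) scale, at 2 weeks (left) and 8 weeks (right); each point is a gene, and called genes are filled and named. Lcn2 at 8 weeks lies at 2.27, and the other called genes lie between -0.49 and 0.84.

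Some markers of other cells differed between the diets at 1 or both times, and a measure of RNA quality did at 2 weeks. Macrophages recycle heme iron and express Hmox1 and Slc40a1. Of 15 macrophage markers 9 were tested, and Cd163, Adgre1 and Mrc1 were not measured. At 2 weeks 0 of 9 were called by limma (3 at an unadjusted p under 0.05, beside 2328 of all 10208 probe sets). The summed signal of all 12 measured markers, tested or not, was 5011 to 5591 on the salt-fat diet and 5697 to 6745 on the normal diet (exact two-sided permutation p = 0.00216, adjusted 0.00866 over 24 such tests). At 8 weeks 3 of 9 were higher, Cd68 (0.90), C1qa (0.57) and Lyz2 (0.32), and the sums were 6065 to 7159 and 5402 to 6423 (exact p = 0.00433, adjusted 0.0148). From 2 to 8 weeks on the salt-fat diet, where Hmox1, Cp and Slc11a2 probe sets rose, 6 of 9 were called higher (median 0.49), and 3 of 9 in the interaction. The macrophage sum was thus low in the group where Slc40a1 was low and high in the group where Hmox1 was high, and its part in either result was not tested. Within the 8-week salt-fat group the sum was highest in array 6 (7159), where Hmox1 was at 90.2.

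Of 13 proximal tubule markers, 7 were lower at 2 weeks and 5 at 8 weeks. Their sum at 2 weeks was 29509 to 37764 on the salt-fat diet and 39499 to 42620 on the normal diet (exact p = 0.00216, adjusted 0.00866). At 8 weeks it was 30561 to 35978 and 32637 to 42986 (exact p = 0.0433, adjusted 0.0816). This list holds Lrp2, which is also in the iron uptake list. Of 12 erythroid and blood markers 4 were tested, and the band 3 gene Slc4a1, also a kidney anion exchanger, was higher at 2 weeks (0.44). The erythroid sum, over the 5 measured markers, was 2332 to 3041 in salt-fat kidneys at 2 weeks and 2332 to 3341 in normal-diet kidneys (exact p = 0.955), and 2240 to 4028 against 1985 to 3066 at 8 weeks (exact p = 0.0909, adjusted 0.136). The hemoglobin gene Hbb was at -0.11 and 0.30 at 2 and 8 weeks, not called. Of 8 tested markers of other kidney segments, 3 were higher at 2 weeks: the collecting duct water channels Aqp2 (1.16) and Aqp3 (0.73) and the thick limb cotransporter Slc12a1 (0.54). At 8 weeks the same 3 were higher (0.73, 0.33 and 0.39) and the distal calcium-binding gene Calb1 was lower (-0.58). Their sum was 9458 to 11380 against 8609 to 9987 at 2 weeks (exact p = 0.0195, adjusted 0.0425) and 9033 to 10727 against 8260 to 10127 at 8 weeks (exact p = 0.0649, adjusted 0.104). The part of these lists in the results was not tested.

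Liver markers matter for Cp, which the liver makes in quantity. Of 10, 4 passed the filter, with albumin Alb lower at 2 weeks (-1.66) and fibrinogen Fga higher at 8 weeks (1.58). The sum of all 10 averaged 271 ± 38.8 in salt-fat kidneys at 2 weeks and 361 ± 56.9 in normal-diet kidneys (SD, n = 6 each; exact p = 0.0130, adjusted 0.0346), when Cp 1368419_at was higher. At 8 weeks it averaged 422 ± 48.6 and 345 ± 66.2 (SD, n = 6 each; exact p = 0.0455, adjusted 0.0816). Its part in the Cp signal was not tested. All 5 tested adipocyte markers were lower at 2 weeks, and limma called 0 of 5 at 8 weeks (0 at an unadjusted p under 0.05). The summed signal of the 7 measured adipocyte markers at 2 weeks was 162 to 344 on the salt-fat diet and 391 to 4053 on the normal diet. The fat index is the mean standardised level of 3 adipocyte markers, Fabp4, Cfd and Car3. The GAPDH 3' to 5' ratio, which rises as RNA degrades, averaged 1.22 ± 0.09 in salt-fat kidneys at 2 weeks and 1.09 ± 0.07 in normal-diet kidneys (SD, n = 6 each; exact p = 0.0152, adjusted 0.0364). At 8 weeks it did not differ by this test (exact p = 0.911). The actin 3' to 5' ratio did not differ by this test at 2 weeks (exact p = 0.134) or at 8 weeks (exact p = 0.117). The spike-in level, the mean of 18 probe sets for control transcripts spiked into the samples, was lower by 0.30 (log2) on the salt-fat diet at 2 weeks (exact p = 0.00216, adjusted 0.00866). At 8 weeks it was higher by 0.23 (exact p = 0.0476, adjusted 0.0816). With each of the GAPDH ratio, the spike-in level and the fat index as a covariate, Hmox1 and both Cp probe sets stayed called at 8 weeks and Slc40a1 1387130_at stayed called at 2 weeks.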

How the data were processed

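Kidney RNA of 24 rats was hybridised to an Affymetrix rat array, 1 array per animal. The authors deposited intensity values that are MAS5 signals per the submitters' processing notes, in 1 table. Its version, scaling target and detection calls are not given in the sources used here. Trimmed means (2% at each end) of 150.034 to 150.042 show a common scaling, and 27 values are 0. Arrays carry no read depth, so their number limits the precision.

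A pseudocount of 7.2 (0.1 of the middle value among array medians) was added before taking log2. Probe sets above the 40th percentile of their array (44.48 to 54.5) on at least 6 of 24 arrays were tested (10208), control probe sets left out. Group means were fitted to all 24 arrays with limma 3.58.1 (lmFit, contrasts.fit, eBayes with trend; R 4.3.3), for diet at each time, their difference (interaction) and time on each diet. Tests were two-sided, adjusted by Benjamini-Hochberg over all tested probe sets. Group sums and ratios were compared by exact permutation tests. The procedure was tested on simulated data. Symbols came from the platform annotation, checked against RefSeq (GRCr8).

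Every probe set of the 9 genes is named. From each list, at most 4 called genes of smallest p per diet comparison are named, and for each member called in any comparison the 3 genes most alike, using its probe set of highest mean. Hmox2, Blvra, Hamp, Nqo1, Nfe2l2, Hbb, Havcr1 and the called markers were named after their values were seen. The genes and lists were chosen with earlier results of these data known. Alternatives were other pseudocounts, normalizations, filters, eBayes options, array weights, a replicate block, fewer groups, each array left out, normal-diet arrays 1 and 2 at 8 weeks left out, and 3 covariates. The exact permutation test of single probe sets was added after seeing the data. Over all tested probe sets, replicate numbers showed no general pairing of the samples. Same-numbered arrays of different groups correlated at -0.15 to 0.16 (median 0.02) in their deviations from group means. Arrays of different numbers correlated at -0.28 to 0.25 (median -0.01). Tfrc signals did go with the number, as given below with the replicate block.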

Additional observations from a re-analysis of the deposited data

Results flagged for a closer look

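The diet difference of the Cp probe set 1368420_at was larger at 8 than at 2 weeks by 1.01 on the log2 scale in a test of that difference (limma adjusted p = 0.0170), with diet differences of 0.28 and 1.29.

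In 4 of 56 groups of 6 arrays, 1 value lay far from the other 5 by Dixon's criterion, which chance meets in about 1 of 20 groups. Slc40a1 1376972_at was at 20.6 in normal-diet array 4 at 8 weeks, against 28.2 to 33.2 in the others. Slc40a1 1387130_at was at 131.9 in salt-fat array 2 at 8 weeks, against 161.4 to 177.1. Tfrc 1371113_a_at was at 65.9 in normal-diet array 1 at 2 weeks, against 129.9 to 184.8. On this probe set array 1 was also the lowest on the salt-fat diet at 2 weeks (53.5) and at 8 weeks (82.5). Tfrc 1388750_at was at 450.7 in normal-diet array 6 at 2 weeks, against 326.7 to 363.3. On this probe set array 6 was also the highest at 8 weeks on the normal diet (631.3) and on the salt-fat diet (454.1).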

How the results depend on the processing

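Over the alternatives other than leaving out 1 array, 933 of 970 values of the tested probe sets (both ferritin probe sets included) kept their direction and their side of the threshold, 10 lost the call, 3 gained it and 24 changed sign. With each array left out in turn, 1521 of 1560 were kept, 4 lost, 9 gained and 26 changed sign. The cause of these changes was not tested. The filter on all 24 arrays dropped Hmox1. With the replicate block, Hmox1 at 8 weeks was 1.26 (limma adjusted p = 0.0113), and the block changed no call of a member. The SE of the Tfrc diet differences was 0.075 with the block in place of 0.114 on 1388750_at, and 0.145 in place of 0.213 on 1371113_a_at. The 8-week diet difference of Tfrc 1388750_at then had a limma adjusted p of 0.123. Of 24 arrays, 4 correlated best with their own number.

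Probe sets called for diet at 2 weeks (892) were 314 with the GAPDH ratio, 482 with the spike-in level and 232 with the fat index as a covariate. For diet at 8 weeks (933) they were 497 with the spike-in level and 542 without normal-diet arrays 1 and 2. For the interaction (39) they were 80 with array weights and 4, 0 and 13 with the 3 covariates, and members called went from 1 to 0 with each. At 2 weeks the members called were 1 in place of 3 with the fat index. For time on the normal diet (4), they were 2 with centring, 9 without normal-diet arrays 1 and 2, and 0 with the stricter filter, without the trend, with only the groups compared and with each covariate. For time on the salt-fat diet (360) they were 632 with array weights and 223 with only the groups compared. Leaving out 1 array gave 598 to 986, 543 to 1120, 22 to 50, 0 to 10 and 220 to 507 for diet at 2 and 8 weeks, interaction and time on the normal and the salt-fat diet, and 2 to 3, 3 to 5, 1 to 1, 0 to 0 and 3 to 5 members.

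The sign changes were all among values not called. Under quantile normalization they were Hmox1 at 2 weeks (0.0061), the ferritin heavy chain probe set at 8 weeks (-0.0096), in the interaction (-0.0012) and for time on the salt-fat diet (-0.057), and the light chain one for time on the normal diet (0.051). With array weights it was Tfrc 1388750_at for time on the salt-fat diet (0.0059). Without normal-diet arrays 1 and 2 it was the heavy chain at 8 weeks (-0.059). With the GAPDH ratio they were Hmox1 at 2 weeks (0.42), Cp 1368418_a_at in the interaction (-0.13) and Tfrc 1371113_a_at for time on the normal diet (-0.0038). With the spike-in level they were Alas1 at 2 weeks (-0.0029), the heavy chain at 8 weeks (-0.10), in the interaction (-0.075) and for time on the normal (0.038) and salt-fat diet (-0.036), Tfrc 1371113_a_at in the interaction (-0.21) and the light chain for time on the normal diet (0.035). With the fat index they were Slc11a2 1367877_at at 2 weeks (-0.051) and for time on the salt-fat diet (0.038), Tfrc 1388750_at at 2 weeks (-0.17), in the interaction (0.021) and for time on the salt-fat diet (0.13), Cp 1368418_a_at in the interaction (-0.036) and Tfrc 1371113_a_at for time on the normal diet (-0.059).

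With 1 array left out, sign changes lay within these ranges: Hmox1 at 2 weeks -0.13 to 0.026; at 8 weeks Slc40a1 1390412_at -0.053 to 0.037, the heavy chain -0.025 to 0.10 and the light chain -0.066 to 0.040; in the interaction Cp 1368418_a_at -0.081 to 0.25 and Tfrc 1371113_a_at -0.020 to 0.33. For time on the normal diet they were Cp 1368419_at -8.3e-04 to 0.095 and Tfrc 1371113_a_at -0.10 to 0.17, and on the salt-fat diet Slc11a2 1367877_at -0.10 to 0.020 and Tfrc 1388750_at -0.090 to 0.018.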
